A study of Mus musculus with 12 samples.

Results

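The genes described here are the chromatin remodellers and histone-modifying enzymes of the mouse hypothalamus. They were chosen by symbol alone, as every gene whose symbol begins with Kdm, Kmt, Hdac, Chd followed by a digit, Smarc, Arid, Setd, Brd followed by a digit, or Hmga, Hmgb or Hmgn followed by a digit. Kdm5c, Kdm5d, Kdm6a and Hmgn5 and symbols holding _dup or -ps were left out. The rule took 85 of the 24020 genes in the count table. No measured value is part of the rule, but it was chosen with earlier results of these data known. Of these, 68 had enough reads to be tested, and most of the other 17 are given by their total counts below.

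The libraries came from hypothalami of mice of the Wfs1tm1Koks line, which carries a mutant allele of Wfs1, the gene of the endoplasmic reticulum protein wolframin. Each of the 3 genotypes of that line, wild-type, heterozygous and homozygous for the mutant allele, was represented by 4 libraries, from 4 individuals per the series' design text. The labels' protocol speaks of 5 animals for hypothalamus and of both genotypes, a disagreement that could not be settled, and the labels give no sex, age, background strain or treatment. RNA from snap-frozen whole hypothalamus was amplified and sequenced as read pairs on a SOLiD instrument, so every value below is an average over all cell types of the dissected tissue. In such bulk tissue, fewer cells of a type and less RNA per cell cannot be told apart.

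DNA in the nucleus is wound on histones, and the proteins studied here decide how that packaging is opened, closed and marked. Remodellers of the SWI/SNF (Smarca2, Smarcc2), ISWI (Smarca1) and CHD families spend ATP to slide, evict or exchange nucleosomes; SET-domain enzymes add methyl groups to lysines, KDM enzymes take them off, HDAC enzymes remove acetyl groups, and bromodomain proteins bind acetylated lysines. In neurons these enzymes set which genes respond to activity, and mutations in many of them, SETD5, CHD8, ARID1B and SMARCA2 among them, cause human disorders of brain development.

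Promoter sequences are shown for the members with the smallest p-values in each direction between homozygous and wild-type libraries, among those with an entry in the RefSeq promoter table that lies within 1000 bases of the annotated gene start, so that the contrast in base composition between the promoters of genes that changed can be seen. Each sequence is the 250 bases before the RefSeq start site (build GRCm38.p6), written 5′ to 3′ on the gene's strand, with every CG dinucleotide in capitals. Arid4b and Smarcc2 were higher in homozygous libraries, and Arid5a and Smarcb1 were lower. The windows lie at chr13:14063534-14063783 (plus strand) for Arid4b, chr10:128458986-128459235 (plus strand) for Smarcc2, chr1:36307483-36307732 (plus strand) for Arid5a and chr10:75921615-75921864 (minus strand) for Smarcb1.
Arid4b: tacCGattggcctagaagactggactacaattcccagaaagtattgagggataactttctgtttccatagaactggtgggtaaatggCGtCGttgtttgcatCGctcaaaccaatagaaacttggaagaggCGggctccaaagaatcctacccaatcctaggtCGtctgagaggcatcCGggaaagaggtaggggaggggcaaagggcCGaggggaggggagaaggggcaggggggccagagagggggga
Smarcc2: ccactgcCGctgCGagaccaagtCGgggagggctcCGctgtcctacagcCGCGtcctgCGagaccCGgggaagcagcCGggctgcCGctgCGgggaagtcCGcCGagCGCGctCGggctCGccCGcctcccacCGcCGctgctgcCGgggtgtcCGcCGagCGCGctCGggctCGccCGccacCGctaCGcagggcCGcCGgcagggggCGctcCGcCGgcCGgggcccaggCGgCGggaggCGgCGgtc
Arid5a: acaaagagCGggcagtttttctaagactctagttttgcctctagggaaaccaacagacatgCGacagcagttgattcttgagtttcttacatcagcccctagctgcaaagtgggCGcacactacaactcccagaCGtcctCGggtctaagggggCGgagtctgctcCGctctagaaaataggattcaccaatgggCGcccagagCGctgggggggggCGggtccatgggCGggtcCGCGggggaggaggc
Smarcb1: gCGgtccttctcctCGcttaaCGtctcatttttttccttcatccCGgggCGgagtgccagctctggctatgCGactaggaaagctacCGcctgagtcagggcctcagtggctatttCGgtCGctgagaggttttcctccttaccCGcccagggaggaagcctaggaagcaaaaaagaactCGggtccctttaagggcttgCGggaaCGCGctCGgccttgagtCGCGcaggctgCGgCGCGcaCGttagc

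The Smarcc2 window holds 40 CG dinucleotides and that of Arid4b holds 8, although both genes were called higher in homozygous libraries. Arid5a has 13 and Smarcb1 has 21. A pair of short motifs were searched on both strands, GGGCGG, the GC box, which itself contains a CG, and CCAAT, the CCAAT box. GGGCGG occurs 3 times before Arid5a and 2 times before Smarcb1, and these letters are not in the Arid4b or Smarcc2 window. CCAAT occurs 3 times before Arid4b and 1 time before Arid5a. Over the 65 members matched in the table, the median window held 19 CG dinucleotides, against 6 over all 32841 promoters of the table. GGGCGG was present in 67.7% of the members' windows and 32.7% of all windows, and CCAAT in 40.0% and 33.9%. Among members whose window lies within 1000 bases of the annotated start, the 7 that were higher had a median of 17 CG dinucleotides, the 2 that were lower had 17 and the 38 that were tested and not called had 20.5. GGGCGG was found in 4 of those 7, in 2 of 2 and in 27 of 38. These are descriptions of the letters in the windows and say nothing of binding.

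Depth was modest, with 979394 to 2330872 counted reads per library, and 10737 genes were tested. Wfs1, the mutated gene, was at 114 to 167 counts per 1000000 reads (CPM, scaled by TMM factors) in wild-type, 81.8 to 102.5 CPM in heterozygous and 14.8 to 20.1 CPM in homozygous libraries, with no overlap between genotypes, so the labels match its level. Of 22 hypothalamic markers 17 could be tested, among them Pmch, Hcrt, Avp and Oxt, and 1 was at 0 in every library. Homozygous libraries 4 and 5 stood apart. In them, a gene's deviation from the mean over libraries followed the GC content of its transcript with slopes of -0.0457 and -0.0508 log2 units for each percent GC, while in the other 10 libraries this slope lay between -0.00298 and 0.0320. The ribosomal RNA precursor Rn45s was at 95.6 and 85.8 CPM in homozygous libraries 4 and 5, 316 and 352 CPM in the other homozygous libraries, 352 to 788 CPM in heterozygous and 958 to 1983 CPM in wild-type libraries. The part of base composition, ribosomal RNA carry-over and depth in the results was not tested beyond the fits without homozygous libraries 4 and 5 and with GC terms. The fit without them keeps only homozygous libraries 1 and 2, and 11.9% of all genes were called in it, beside 25.4% in the main fit. A call can therefore end there without a smaller fold change.

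In wild-type hypothalamus the members spanned a wide range of levels. Levels are compared between genes as CPM per kilobase of the longest coding transcript, and over the 68 tested members they ran from 1.38 for Kdm2b, an H3K36 demethylase, to 119 for Smarca2, with a median of 14.4. Smarca2, the BRM ATPase of SWI/SNF complexes, stood highest with 119 ± 5.63 CPM per kilobase (SD, n = 4). Next came the SWI/SNF scaffold Smarcc2 at 106 ± 6.71, the class IV deacetylase Hdac11 at 76.5 ± 6.06 and the SET-domain protein Setd5 at 59.2 ± 7.72. The annealing helicase Smarcal1 was at 45.2 ± 3.96. Setd7 at 38.6 ± 6.08 and the H3K4 methyltransferase Setd1a at 38.5 ± 4.60 did not differ beyond their spread. The highest of their stems were Chd3 at 38.0 ± 7.33, Arid4a at 33.0 ± 6.07, Kdm2a at 28.1 ± 2.58 and, below the median of all members, Hmgn3 at 10.1 ± 0.854 CPM per kilobase. Replicate spread was small for most of them: the coefficient of variation over the 4 wild-type libraries had a median of 13.1%, and Chd6 was the steadiest at 2.08% (319 ± 6.65 CPM).

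**Figure D1:**
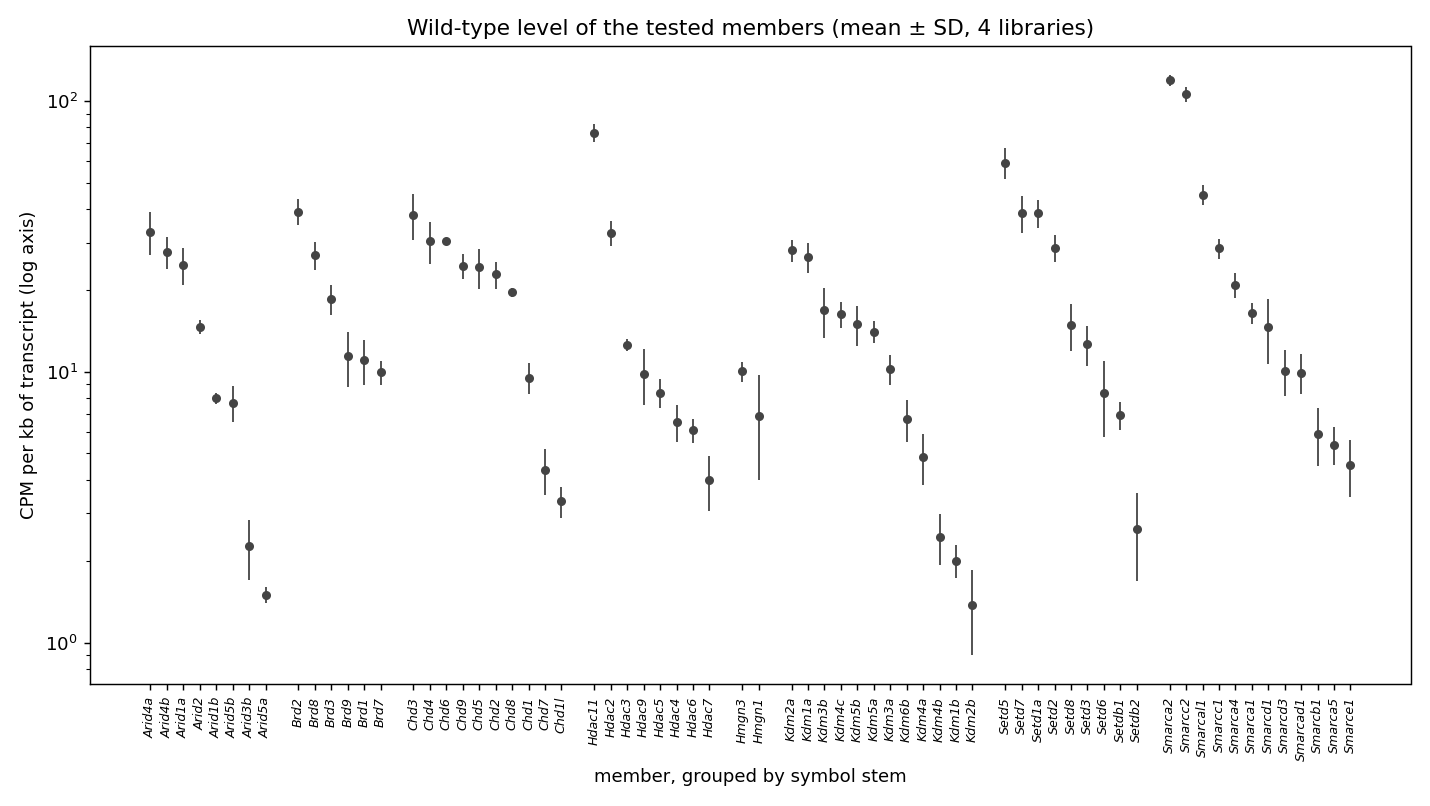
Wild-type level of 67 tested members, in CPM per kilobase of transcript on a log axis, grouped by symbol stem and ordered by level (points: mean of 4 libraries; bars: SD). Smarca2 and Smarcc2 stand above 100 CPM per kilobase, and Arid5a and Kdm2b are at the bottom near 1.5.

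Some members were nearly absent from the count table. The high mobility group genes Hmgb1, Hmgb2, Hmgb3, Hmga1, Hmga2 and Hmgn2 had 9, 10, 40, 2, 5 and 0 reads over all 12 libraries together, and Hmgb4 and Hmgb1-rs17 had 0 and 3. Several of these genes have near-identical processed pseudogenes, so reads that match more than 1 place can be lost from them, and a low count does not measure their expression. The class I deacetylases Hdac1 and Hdac8 had 30 and 83 reads, and Hdac10 had 64. Arid3a had 73, Arid3c 0, Kdm4d 51, Setd4 27 and the SWI/SNF subunit Smarcd2 85. No member carries a Kmt symbol in this table, because its annotation lists the Kmt2 genes under older names, which are described further on.

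Between homozygous and wild-type hypothalamus, 17 of the 68 tested members passed an adjusted p of 0.05 in edgeR's quasi-likelihood test with Benjamini-Hochberg adjustment over all genes, which is 25%, beside 25.4% of all genes tested. The total is near the background and is no result about these genes. By direction, 13 members were higher (19.1%, background 13.7%) and 4 were lower (5.88%, background 11.6%). The median log2 fold change over the 68 members was 0.08, and over all genes tested it was -0.03. Of the members 42 had a positive log2 fold change (61.8%, background 47.9%), and values ran from -1.67 to 1.34. The libraries of both genotypes did not overlap for 13 members that were higher (19.1%, background 11.8%) and 3 that were lower (4.41%, background 11.8%). In all libraries 26 members had an unadjusted p under 0.05 (38.2%, background 37.4%). Without homozygous libraries 4 and 5, 8 of 71 members were called higher and 0 lower, 11.3% beside 11.9% of all genes. Over all 11335 genes of that fit 810 were higher and 534 lower. With each library's GC slope as a covariate, 7 of 68 members were higher and 0 lower, 10.3% beside 4.29% of all genes. Over all 10737 genes of that fit 344 were higher and 117 lower. Setd5, Smarcc2, Arid4a and Arid4b were called in each of the 22 alternative fits.

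**Figure D2:**
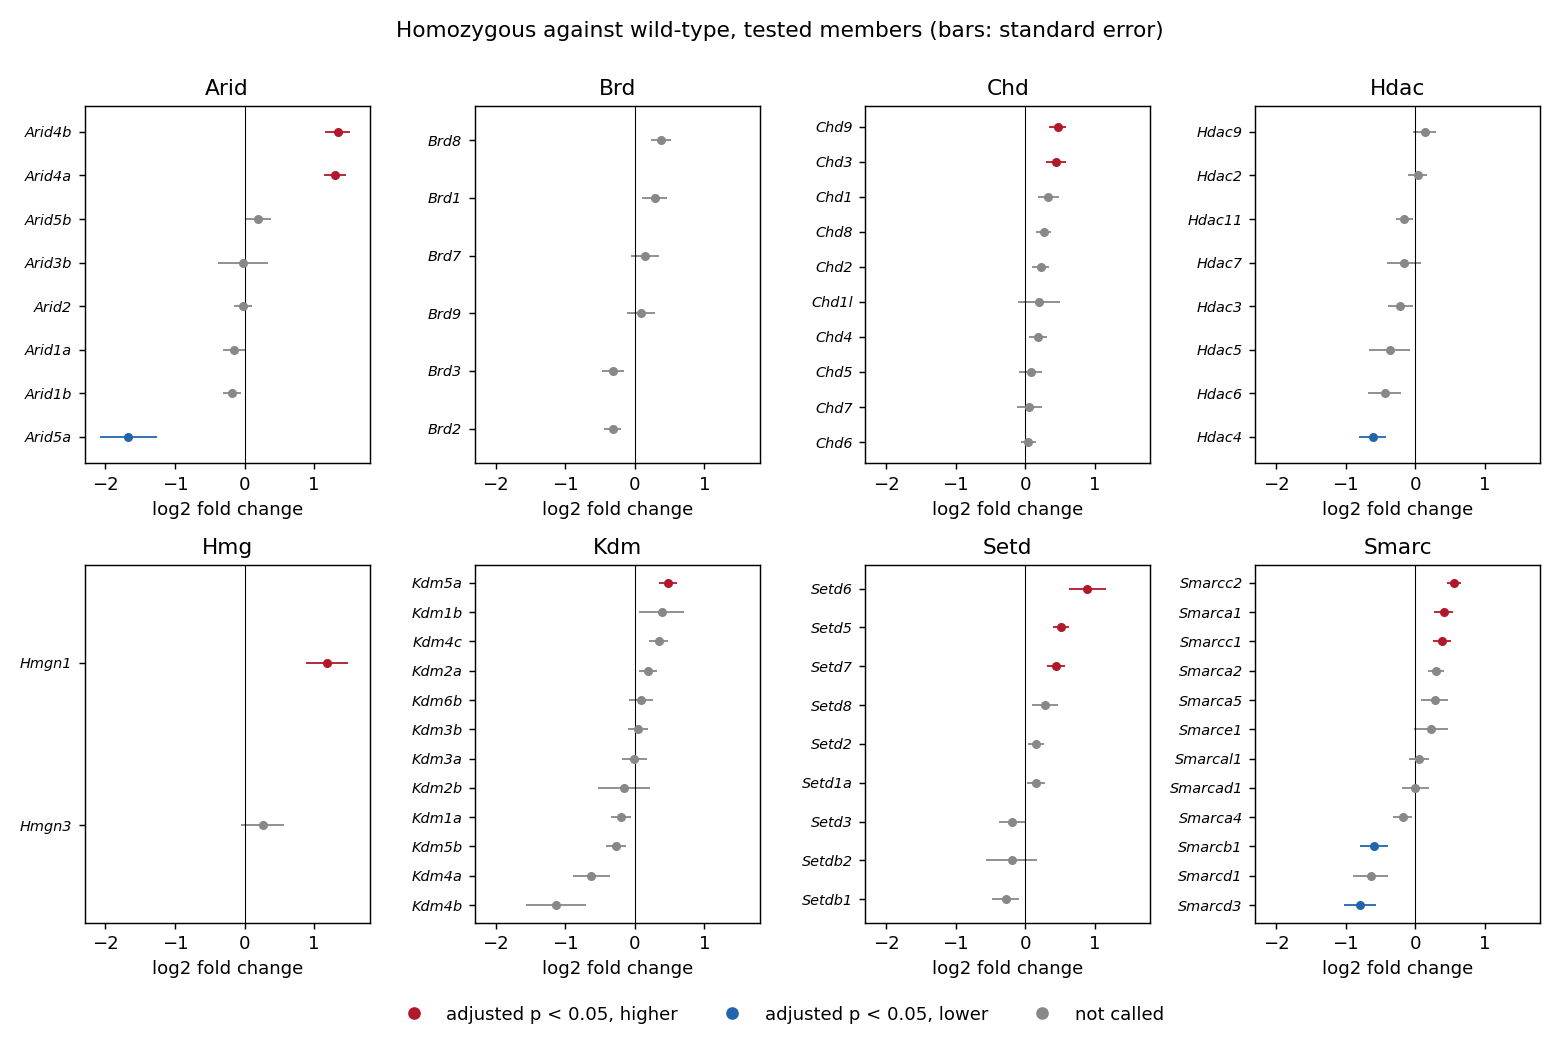
Log2 fold change of homozygous against wild-type libraries for 67 tested members by symbol stem, with standard errors (4 libraries a genotype); red marks members called higher, blue called lower and grey not called. All 10 Chd genes lie to the right of 0, 6 of 8 Hdac genes to the left (3 of 8 without homozygous libraries 4 and 5), and Arid4a and Arid4b lie farthest to the right.

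The largest rises were in Arid4a and Arid4b, which encode a pair of related DNA-binding subunits of the SIN3 histone deacetylase co-repressor. Arid4a (chr12:71015990-71098592, plus strand, mm10) was at 157, 151, 142 and 210 CPM in wild-type hypothalami, 265, 198, 355 and 304 CPM in heterozygous ones and 384, 380, 409 and 463 CPM in homozygous ones. Every homozygous library was above every heterozygous and wild-type library, while heterozygous library 2 fell below wild-type library 5. The homozygous level was 2.46-fold that of wild-type (log2 fold change 1.30, SE 0.157, adjusted p = 7.40e-06, edgeR). Arid4b (chr13:14063232-14199603, plus strand) was at 169, 177, 130 and 173 CPM in wild-type, 271, 191, 254 and 267 CPM in heterozygous and 325, 301, 436 and 595 CPM in homozygous libraries. The 3 genotypes did not overlap, and homozygous library 5 was the highest. The fold was 2.53 (log2 fold change 1.34, SE 0.177, adjusted p = 1.69e-05, edgeR). Without homozygous libraries 4 and 5 the log2 fold change of Arid4a was 1.21 and that of Arid4b 0.95, and both stayed called. With the GC slope covariate they were 1.03 and 0.64, also called, so the value of Arid4b moved by more than 1.5 times.

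The other ARID genes went different ways. Arid5a, an AT-rich DNA- and RNA-binding protein, was at 8.07, 7.61, 8.74 and 8.70 CPM in wild-type, 3.86, 5.84, 5.13 and 7.22 CPM in heterozygous and 4.02, 2.69, 1.65 and 1.13 CPM in homozygous libraries. Wild-type libraries lay above all 8 others, and the heterozygous and homozygous ranges overlapped. It fell by 1.67 on the log2 scale (SE 0.407, adjusted p = 0.00447, edgeR), the largest fall among the members, at a level of few reads. The call of Arid5a (chr1:36307733-36324029, plus strand) ended without homozygous libraries 4 and 5 (-1.33, adjusted p = 0.0674) and with the GC slope covariate (-1.16, adjusted p = 0.285). The SWI/SNF subunits Arid1a, Arid1b and Arid2 had log2 fold changes of -0.15, -0.18 and -0.03, none called, although the Arid1b libraries did not overlap (90.5 ± 4.19 CPM in wild-type, 80.7 ± 5.08 CPM in homozygous, SD, n = 4). Arid3b and Arid5b were at -0.03 and 0.20, also not called.

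In the Smarc stem 3 genes rose and 2 fell of 12 tested (background 13.7% and 11.6%), with a median log2 fold change of 0.14. Smarcc2 (chr10:128459248-128490482, plus strand), the BAF170 scaffold of SWI/SNF complexes, was at 493, 512, 440 and 490 CPM in wild-type, 589, 566, 668 and 625 CPM in heterozygous and 740, 739, 687 and 674 CPM in homozygous libraries. No library of 1 genotype reached into another genotype's range. The homozygous level was 1.47-fold that of wild-type (SE of the log2 fold change 0.103, adjusted p = 0.000495, edgeR), and with the GC and length offset the log2 fold change was 0.87, over 1.5 times as large. Its paralog Smarcc1 (chr9:110117708-110240178, plus strand), the BAF155 scaffold, was at 146, 174, 163 and 178 CPM in wild-type, 178, 181, 204 and 184 CPM in heterozygous and 247, 186, 193 and 240 CPM in homozygous libraries. All homozygous libraries were above all wild-type libraries, and the lowest heterozygous library was at 178.1 beside the highest wild-type at 177.8. Smarcc1 rose by less than Smarcc2, with a log2 fold change of 0.38 (SE 0.126, adjusted p = 0.0276, edgeR); the difference between both genes was not tested. Its call ended without homozygous libraries 4 and 5 (0.39, adjusted p = 0.0594), with the GC slope covariate (0.37, adjusted p = 0.186) and without wild-type library 1, wild-type library 3, homozygous library 1 or homozygous library 5 (adjusted p = 0.0784, 0.0632, 0.0818 and 0.0744).

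Smarca1 (chrX:47809368-47892974, minus strand), the SNF2L ATPase of ISWI complexes, was at 82.1, 87.5, 75.0 and 72.1 CPM in wild-type, 98.3, 91.8, 99.6 and 91.2 CPM in heterozygous and 112, 92.0, 97.2 and 122 CPM in homozygous libraries. Both mutant genotypes lay above wild-type and overlapped each other. The rise was 0.41 on the log2 scale (SE 0.137, adjusted p = 0.0297, edgeR). The call ended without homozygous libraries 4 and 5 (0.37, adjusted p = 0.114), with the GC slope covariate (0.27, adjusted p = 0.419), with the GC and length offset (0.11, adjusted p = 0.595) and without wild-type library 3 or 5 or homozygous library 1 or 5 (adjusted p = 0.0766, 0.0783, 0.0633 and 0.0882). The other ISWI ATPase, Smarca5, had a log2 fold change of 0.28 (adjusted p = 0.32, edgeR) and was not called. The SWI/SNF ATPase Smarca2 (chr19:26605050-26778322, plus strand) was at 664, 731, 697 and 735 CPM in wild-type, 667, 650, 914 and 841 CPM in heterozygous and 901, 884, 820 and 856 CPM in homozygous libraries. Wild-type and homozygous libraries did not overlap, but its log2 fold change of 0.29 (SE 0.114) had an adjusted p of 0.0618 in edgeR's test. It was called with RLE size factors (adjusted p = 0.0492), with DESeq2 (adjusted p = 0.0387), with the GC and length offset (0.41, adjusted p = 0.00702) and without heterozygous library 2 (adjusted p = 0.0467). The alternative ATPase Smarca4 (BRG1) was at 134 ± 13.8 CPM in wild-type and 117 ± 17.2 CPM in homozygous libraries (SD, n = 4) and was not called.

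The Smarc genes that fell were accessory and core SWI/SNF subunits. Smarcd3 (chr5:24590818-24624411, minus strand), the BAF60C subunit, was at 35.9, 30.4, 48.1 and 37.9 CPM in wild-type, 26.4, 35.0, 27.1 and 38.7 CPM in heterozygous and 27.5, 26.9, 16.5 and 13.6 CPM in homozygous libraries. The homozygous libraries were all below the wild-type ones, and libraries 4 and 5 were the lowest. It fell by 0.79 on the log2 scale (SE 0.229, adjusted p = 0.0138, edgeR). Smarcd3 lies on the chromosome of Wfs1, at a distance of 12.3 Mb. Without homozygous libraries 4 and 5 its log2 fold change was -0.49 (adjusted p = 0.163), with the GC and length offset -0.34 (adjusted p = 0.213), with the GC slope covariate -0.19 (adjusted p = 0.755) and without wild-type library 3 it was -0.66 (adjusted p = 0.0699). The core subunit Smarcb1 (SNF5, chr10:75896769-75921617, minus strand) was at 30.8, 41.9, 56.1 and 47.2 CPM in wild-type, 34.1, 35.5, 35.2 and 29.5 CPM in heterozygous and 35.5, 27.8, 22.2 and 30.5 CPM in homozygous libraries. Wild-type library 1 lay within the homozygous range, and wild-type library 3 was the highest. It fell by 0.60 on the log2 scale (SE 0.201, adjusted p = 0.0303, edgeR), and the call ended without homozygous libraries 4 and 5 (-0.49, adjusted p = 0.152), with the GC slope covariate (-0.27, adjusted p = 0.644) and without wild-type library 2, 3 or 5 or homozygous library 2 or 4 (adjusted p = 0.0506 to 0.146). Over the 13 tested SWI/SNF subunits, with Arid1a, Arid1b, Arid2, Brd7 and Brd9 included, 2 rose and 2 fell (background 13.7% and 11.6%). Their median log2 fold change was -0.03. In a fit of the wild-type and homozygous libraries alone, Smarca1, Smarcb1 and Smarcc1 were not called (adjusted p = 0.0573, 0.059 and 0.0541).

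Among SET-domain genes 3 of 9 tested rose and 0 fell (background 13.7% and 11.6%), with 3 at an unadjusted p under 0.05, near the background of 37.4%, and a median log2 fold change of 0.16. Setd5 (chr6:113077365-113153435, plus strand), a chromatin regulator needed for neuronal development, was at 389, 477, 361 and 374 CPM in wild-type, 422, 405, 487 and 480 CPM in heterozygous and 583, 586, 574 and 542 CPM in homozygous libraries. All 4 homozygous libraries were above all 8 others and close to each other, with a coefficient of variation of 3.52%, the lowest of any tested member in that genotype. The homozygous level was 1.43-fold that of wild-type (log2 fold change 0.52, SE 0.113, adjusted p = 0.00200, edgeR). Setd7 (chr3:51515319-51560879, minus strand), which monomethylates H3K4 and other proteins, was at 291, 340, 230 and 285 CPM in wild-type, 302, 332, 321 and 348 CPM in heterozygous and 378, 435, 432 and 313 CPM in homozygous libraries. Homozygous library 5 lay below wild-type library 2, so the genotypes overlapped. It rose by a log2 fold change of 0.45 (SE 0.129, adjusted p = 0.0135, edgeR), and without wild-type library 3, its lowest, by 0.36 (adjusted p = 0.0624). Setd6 (chr8:95715881-95719010, plus strand), a methyltransferase of the NF-kappa-B subunit RelA, was at 11.7, 9.51, 16.8 and 19.3 CPM in wild-type, 27.6, 20.0, 23.4 and 24.9 CPM in heterozygous and 32.2, 16.2, 33.8 and 30.5 CPM in homozygous libraries. Homozygous library 2 lay inside the wild-type range. Its log2 fold change was 0.90 (SE 0.268, adjusted p = 0.0170, edgeR). Without homozygous libraries 4 and 5 the value was 0.67 (adjusted p = 0.138), with the GC slope covariate 0.53 (adjusted p = 0.442), without wild-type library 2 it was 0.77 (adjusted p = 0.0541) and without homozygous library 4 it was 0.78 (adjusted p = 0.0578). Setd2, the H3K36 trimethylase, and Setdb1, an H3K9 methylase, were at 0.16 and -0.28 and not called.

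All 10 tested genes whose symbol begins with Chd, Chd1l included, had positive log2 fold changes, from 0.05 to 0.47 with a median of 0.21. Of them 2 passed the test (background 13.7% higher). All 10 stayed positive without homozygous libraries 4 and 5 and with either GC term, and 8 were positive without wild-type library 1, where Chd5 and Chd7 turned, and 9 without homozygous library 1 or 2, where Chd5 did. Chd9 (chr8:90828352-91054516, plus strand) was at 330, 307, 256 and 292 CPM in wild-type, 417, 300, 339 and 306 CPM in heterozygous and 359, 419, 444 and 418 CPM in homozygous libraries. All homozygous libraries were above all wild-type libraries, and heterozygous library 1 stood with the homozygous ones. Chd9 rose by 0.47 on the log2 scale (SE 0.125, adjusted p = 0.00843, edgeR), and with the GC slope covariate by 0.25 (adjusted p = 0.347). Chd3 (chr11:69343273-69369406, minus strand), the remodelling ATPase of NuRD deacetylase complexes, was at 218, 269, 269 and 347 CPM in wild-type, 320, 314, 412 and 420 CPM in heterozygous and 419, 394, 343 and 343 CPM in homozygous libraries. Wild-type library 5 reached the homozygous range. It rose by a log2 fold change of 0.44 (SE 0.140, adjusted p = 0.0224, edgeR), and the call ended without wild-type library 1 (0.35, adjusted p = 0.0802), 2 (adjusted p = 0.0514) or 3 (adjusted p = 0.0589) or homozygous library 1 (adjusted p = 0.0547). With the GC and length offset its log2 fold change was 0.84, over 1.5 times as large.

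Chd8, a remodeller whose human counterpart is an autism gene, was at 170, 158, 171 and 170 CPM in wild-type, 187, 202, 208 and 188 CPM in heterozygous and 206, 192, 197 and 213 CPM in homozygous libraries. Every mutant library was above every wild-type library, yet the log2 fold change of 0.27 (SE 0.111) had an adjusted p of 0.0775 in edgeR's test. It was called with DESeq2 (adjusted p = 0.0407) and with the GC and length offset (0.30, adjusted p = 0.0351). Chd1 was at 76.3, 64.7, 72.1 and 88.3 CPM in wild-type, 97.7, 84.2, 101 and 113 CPM in heterozygous and 99.2, 84.8, 107 and 92.6 CPM in homozygous libraries, which overlapped (log2 fold change 0.34, adjusted p = 0.0932, edgeR). Chd4 and Chd5, the other NuRD-type ATPases, were at 0.19 and 0.08 and not called.

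Of 8 tested histone deacetylase genes 6 had a log2 fold change below 0, with a median of -0.19, and only Hdac4 passed the test (background 11.6% lower). Over all genes tested 47.9% were above 0. The Hdac signs changed between fits. With the GC and length offset 5 of 8 were below 0 and the median was -0.12. Hdac5, Hdac7 and Hdac11 turned positive in that fit, and Hdac2 and Hdac9 turned negative. Without homozygous libraries 4 and 5, 3 of 8 were below 0 and the median was 0.05, and with the GC slope covariate 2 of 8 and 0.10. With the replicate block 4 of 8 were below 0 and the median was -0.04, while without homozygous library 4 or 5 alone 6 of 8 stayed below 0. Hdac4 (chr1:91928779-92195699, minus strand), a class IIa deacetylase that shuttles out of the nucleus with neuronal activity, was at 42.5, 53.3, 62.7 and 53.5 CPM in wild-type, 42.4, 58.0, 48.3 and 56.4 CPM in heterozygous and 30.9, 43.5, 37.1 and 22.6 CPM in homozygous libraries. Homozygous library 2 lay just above wild-type library 1, and homozygous library 5 was the lowest. It fell by 0.62 on the log2 scale (SE 0.195, adjusted p = 0.0225, edgeR). The call ended without homozygous libraries 4 and 5 (-0.48, adjusted p = 0.126), with the GC slope covariate (-0.20, adjusted p = 0.702), with the GC and length offset (-0.43, adjusted p = 0.0726) and without wild-type library 3 or homozygous library 1 or 5 (adjusted p = 0.0944, 0.0522 and 0.0711). Hdac11, the most abundant deacetylase per length, was at 188, 197, 226 and 201 CPM in wild-type, 204, 196, 193 and 185 CPM in heterozygous and 182, 199, 149 and 198 CPM in homozygous libraries. These ranges overlapped, the log2 fold change was -0.16 (adjusted p = 0.359, edgeR), and its sign turned with the GC and length offset (0.27, adjusted p = 0.120). The class I enzymes Hdac2 and Hdac3, catalytic subunits of the large co-repressor complexes, were at 0.03 and -0.22 and not called. Hdac5, the nearest relative of Hdac4, was at 45.4 ± 5.65 CPM in wild-type and 32.5 ± 19.7 CPM in homozygous libraries (SD, n = 4), a spread that left it uncalled.

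Of 12 tested lysine demethylase genes 1 rose and 0 fell (background 13.7% and 11.6%), with 4 at an unadjusted p under 0.05, near the background of 37.4%, and a median log2 fold change of 0.02. Kdm5a (chr6:120364124-120444574, plus strand), which removes H3K4 methylation, was at 170, 139, 146 and 162 CPM in wild-type, 200, 175, 223 and 180 CPM in heterozygous and 192, 191, 241 and 239 CPM in homozygous libraries. Both mutant genotypes lay above wild-type, and homozygous libraries 4 and 5 were the highest. Kdm5a rose by 0.48 on the log2 scale (SE 0.129, adjusted p = 0.00907, edgeR). Without homozygous libraries 4 and 5 the value was 0.32 (adjusted p = 0.124), with the GC slope covariate 0.16 (adjusted p = 0.595) and with the GC and length offset 0.26 (adjusted p = 0.0912). Its paralog Kdm5b was at 130 ± 22.3 CPM in wild-type and 107 ± 16.5 CPM in homozygous libraries (SD, n = 4) and was not called.

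The H3K9 and H3K36 demethylases Kdm4a, Kdm4b and Kdm4c did not share a sign. Kdm4c was at 63.1, 61.8, 78.0 and 70.9 CPM in wild-type, 86.8, 82.6, 76.2 and 80.7 CPM in heterozygous and 84.5, 92.5, 82.4 and 88.1 CPM in homozygous libraries, without overlap between wild-type and homozygous (log2 fold change 0.34, adjusted p = 0.0686, edgeR). Kdm4a was at 25.7, 20.9, 16.8 and 27.4 CPM in wild-type, 17.4, 16.7, 13.9 and 13.1 CPM in heterozygous and 22.8, 11.2, 10.7 and 14.7 CPM in homozygous libraries, which overlapped. Its log2 fold change was -0.63 (SE 0.263, adjusted p = 0.0838, edgeR), and without homozygous library 1 it was -0.93 (adjusted p = 0.0135). Kdm4b was at 8.07, 12.4, 10.9 and 13.7 CPM in wild-type, 10.9, 6.67, 4.39 and 7.22 CPM in heterozygous and 6.04, 8.08, 3.29 and 0 CPM in homozygous libraries. Homozygous library 2 was just above wild-type library 1, and library 5 had no read, which gave the widest spread of any tested member in that genotype (80.5%). Its log2 fold change was -1.14 (SE 0.429, adjusted p = 0.0548, edgeR), and it was -1.26 (adjusted p = 0.0479) without wild-type library 1 and -1.64 (adjusted p = 0.0160) without homozygous library 2. DESeq2, limma-voom and the fits with no filter and with the stricter filter also called it (adjusted p = 0.0462, 0.0213, 0.0355 and 0.0488). Kdm2a, the most abundant demethylase per length, was at 208, 255, 254 and 248 CPM in wild-type, 247, 265, 307 and 251 CPM in heterozygous and 314, 301, 231 and 250 CPM in homozygous libraries, which overlapped (log2 fold change 0.19, adjusted p = 0.283, edgeR).

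Among the bromodomain genes, which read acetylated lysines, Brd2, Brd3 and Brd8 were not called. Brd2 was at 180, 209, 178 and 160 CPM in wild-type, 154, 170, 166 and 165 CPM in heterozygous and 153, 162, 139 and 124 CPM in homozygous libraries, with a log2 fold change of -0.32 (SE 0.124, adjusted p = 0.062, edgeR), and Brd3 was at -0.31 (adjusted p = 0.148, edgeR). The Brd2 ranges overlapped, its adjusted p was 0.0473 with the stricter filter, 0.0496 without wild-type library 5 and 0.0377 without homozygous library 2, and its sign turned with the GC and length offset (0.14, adjusted p = 0.446). Brd8, a subunit of the TIP60 acetyltransferase complex, was at 119, 108, 114 and 140 CPM in wild-type, 158, 129, 155 and 146 CPM in heterozygous and 173, 130, 137 and 195 CPM in homozygous libraries. Its libraries overlapped at a log2 fold change of 0.38 (SE 0.143, adjusted p = 0.0544, edgeR), and the adjusted p was 0.0337, 0.0178 and 0.0438 without wild-type library 5, homozygous library 2 and homozygous library 4. It was 0.0438, 0.0423 and 0.0445 with RLE size factors, DESeq2 and no filter.

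Of the 11 high mobility group genes 2 could be tested. Hmgn1 (chr16:96120618-96127729, minus strand), a nucleosome-binding protein that loosens chromatin, was at 9.53, 20.9, 9.47 and 19.9 CPM in wild-type, 18.6, 19.2, 25.6 and 33.5 CPM in heterozygous and 25.5, 25.1, 36.2 and 54.2 CPM in homozygous libraries. The homozygous libraries were all above wild-type, and library 5 was the highest. It rose 2.27-fold (log2 fold change 1.18, SE 0.302, adjusted p = 0.00632, edgeR), and without homozygous libraries 4 and 5 the log2 fold change was 0.77 (adjusted p = 0.0887) and with the GC slope covariate 0.53 (adjusted p = 0.456). Hmgn1 has processed pseudogenes, so its count is uncertain. Hmgn3 was at 13.9, 14.3, 15.3 and 12.4 CPM in wild-type, 12.2, 15.02, 22.0 and 14.4 CPM in heterozygous and 26.8, 8.53, 16.5 and 16.9 CPM in homozygous libraries, which overlapped (log2 fold change 0.26, adjusted p = 0.566, edgeR). Its sign rested on homozygous library 1, without which the value was -0.09 (adjusted p = 0.862).

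**Figure D3:**
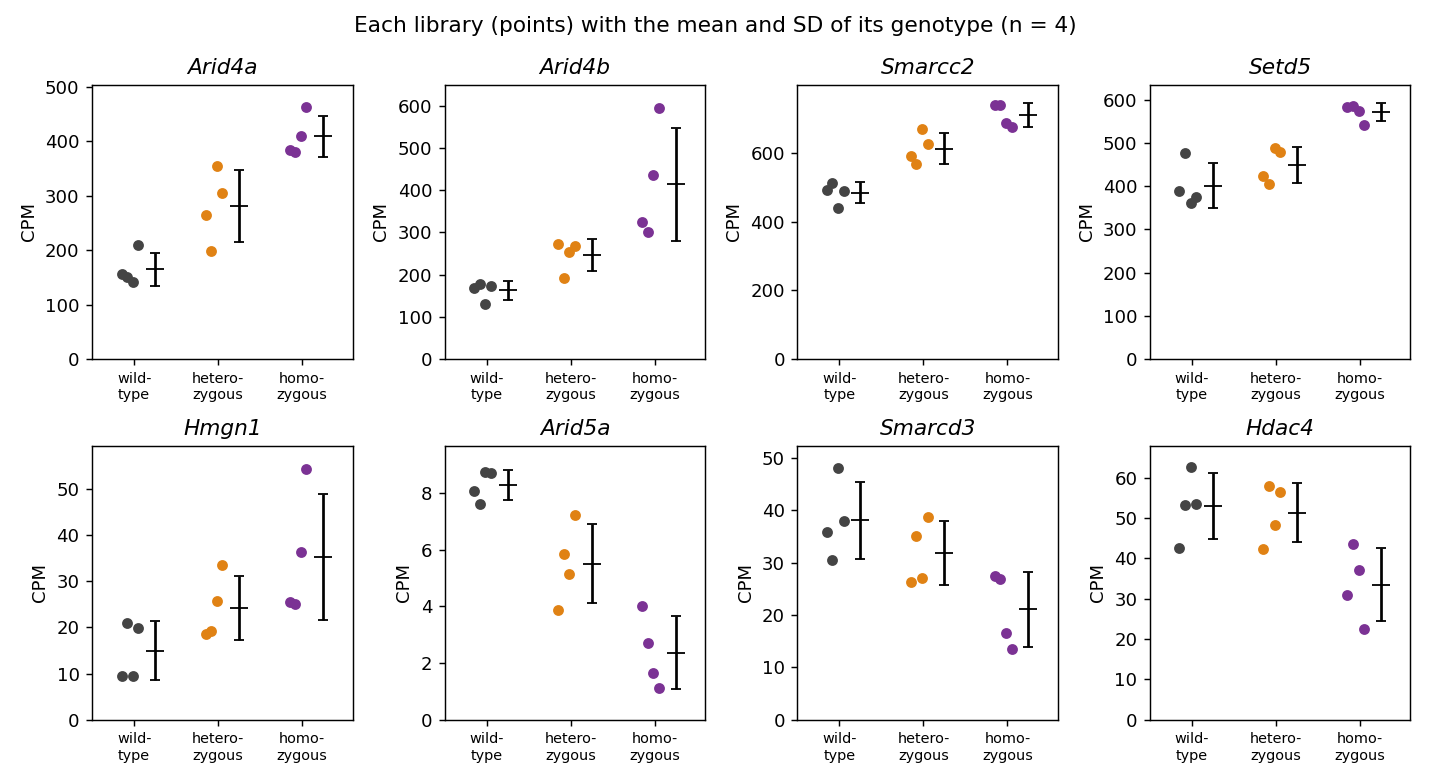
CPM of 8 members in each of the 12 libraries by genotype; the bars give mean and SD over n = 4. Arid4b and Smarcc2 separate the 3 genotypes, Hdac4 overlaps between wild-type and homozygous, and Arid5a falls from near 8 CPM in wild-type to under 5 CPM in homozygous libraries.

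Heterozygous mice carry 1 mutant allele, and in them far fewer genes passed the test: 0.596% of all genes, against 1 of the 68 members, Arid4a. Arid4a was higher than in wild-type by a log2 fold change of 0.76 (SE 0.156, adjusted p = 0.0228, edgeR; background for genes called higher 0.512%). The call ended without wild-type library 1, 2 or 3 (adjusted p = 0.101, 0.101 and 0.139) and without heterozygous library 1, 3 or 4 (adjusted p = 0.0656, 0.156 and 0.119), with log2 fold changes between 0.62 and 0.79. Those fits called 0.0272% to 0.222% of all genes, beside 0.596% in the main fit. Arid4b and Smarcc2 were also called with DESeq2, without homozygous libraries 4 and 5 and with the GC slope covariate. These fits called 2.12%, 3.79% and 2.42% of all genes. No member was called lower by edgeR (background 0.0838%), and none by DESeq2 or limma-voom; 11 members in either direction had an unadjusted p under 0.05 (16.2%, background 14.2%). Of these 11, Kdm4a alone had a negative log2 fold change (-0.57, adjusted p = 0.314, edgeR). The median log2 fold change was 0.11 over the members and -0.01 over all genes tested, and 43 members were above 0 (63.2%, background 49.2%). Heterozygous libraries were all above wild-type libraries for 8 members (11.8%, background 4.77%), namely Arid4b, Chd6, Chd8, Kdm5a, Setd6, Smarca1, Smarcc1 and Smarcc2, and all below for Arid2 and Arid5a (2.94%, background 4.57%).

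Between homozygous and heterozygous libraries 1 member passed the test, Arid4b, which was higher in homozygous mice by a log2 fold change of 0.74 (SE 0.172, adjusted p = 0.0291, edgeR; background for genes called higher 1.74%, for either direction 2.20%). The call of Arid4b ended without heterozygous library 1, 2 or 4 (adjusted p = 0.0629, 0.159 and 0.0661) and without homozygous library 4 or 5 (adjusted p = 0.101 and 0.118). It also ended without homozygous libraries 4 and 5 together (0.35, adjusted p = 0.490), with the GC slope covariate (0.24, adjusted p = 0.714) and in a fit of these genotypes alone (0.74, adjusted p = 0.0696). With the replicate block it was 0.47 (adjusted p = 0.168). The fits with 1 of those libraries left out called 0.0558% to 0.389% of all genes, beside 2.20% in the main fit. That share was 0.00882% without homozygous libraries 4 and 5 and 0.00931% with the GC slope covariate. It was 0.43% with these genotypes alone and 0.307% with the replicate block. Arid4a, at 0.55, had an adjusted p of 0.056 and Setd5, at 0.35of 0.0902 in edgeR's test; DESeq2 called both. No member was called lower by edgeR, DESeq2 or limma-voom (background 0.456%), and 9 members had an unadjusted p under 0.05 (13.2%, background 20.3%). The median over the members was 0.00 to 2 decimals, beside -0.01 over all genes tested, and 34 of the 68 were above 0 (50%, background 48.8%). Libraries did not overlap for Arid4a, Arid4b, Setd5 and Smarcc2, which were higher (5.88%, background 5.00%), and for Kdm3b, which was lower (1.47%, background 4.48%).

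For all 17 members called between homozygous and wild-type, the heterozygous mean lay between the other means. The members were chosen here by the outer comparison, and both mutant genotypes are set against the same wild-type libraries, so this is a description. Setd6 reached 0.70 in heterozygous and 0.90 in homozygous libraries, and Chd3 reached 0.41 and 0.44. Hdac4 was at -0.04 in heterozygous and -0.62 in homozygous libraries, and Setd5 at 0.17 and 0.52. The step from heterozygous to homozygous was not called for any of these (adjusted p = 0.692, 0.914, 0.1004 and 0.0902 for Setd6, Chd3, Hdac4 and Setd5, edgeR), and this step was not tested against that from wild-type to heterozygous.

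**Figure D4:**
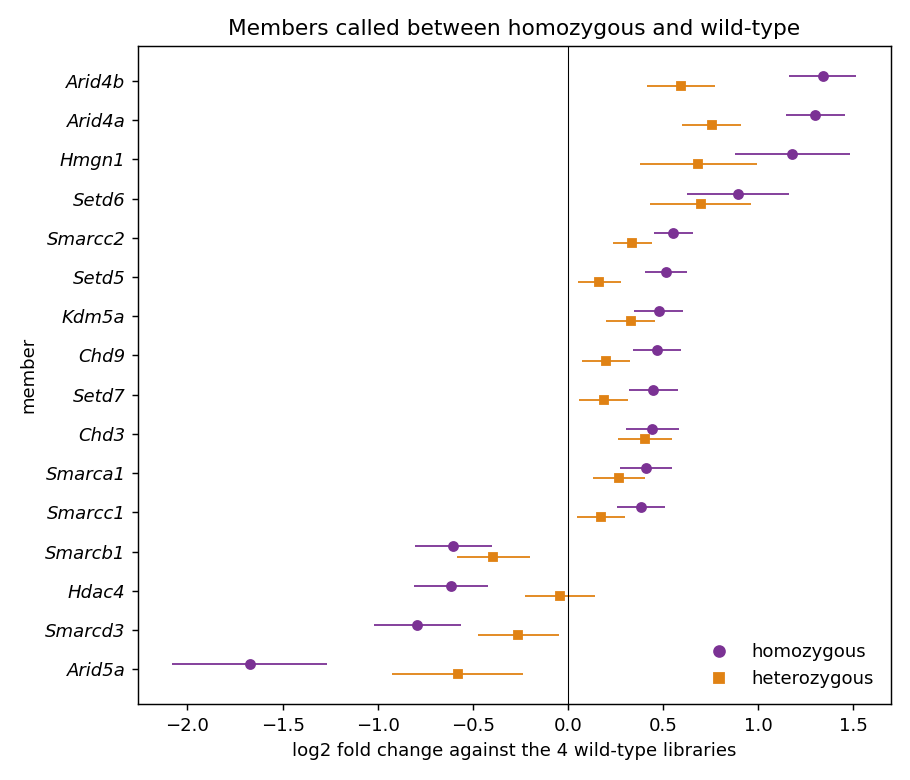
Log2 fold change against the 4 wild-type libraries, with standard errors, of 16 of the 17 members called between homozygous and wild-type: circles are homozygous and squares heterozygous libraries. Each square lies between 0 and its circle, close to the circle for Chd3 and close to 0 for Hdac4.

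Base composition moved with these fold changes. Across the 68 tested members, Spearman's rho between transcript GC content and the log2 fold change of homozygous against wild-type was -0.414 (Pearson's r = -0.448), beside a rho of -0.479 across 10620 genes; genes of 1 set of libraries are not independent replicates. The members called higher had a median GC content of 47.6% (39.5% to 56.1%), those called lower 53.9% (49.4% to 59.2%) and those not called 49.7%. Transcript length showed little relation (rho = 0.0763 across the members). Among the genes that rose, Setd6, Smarcc2 and Chd3 had GC contents of 55.4%, 54.3% and 56.1%, while Arid4a and Arid4b had 44.0% and 40.7%. The median GC content of the members, 49.5%, was close to the 49.0% of all genes tested. Counted over libraries, the members together took 0.826% to 0.892% of reads in wild-type, 0.905% to 0.960% in heterozygous and 0.874% to 0.978% in homozygous libraries.

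**Figure D5:**
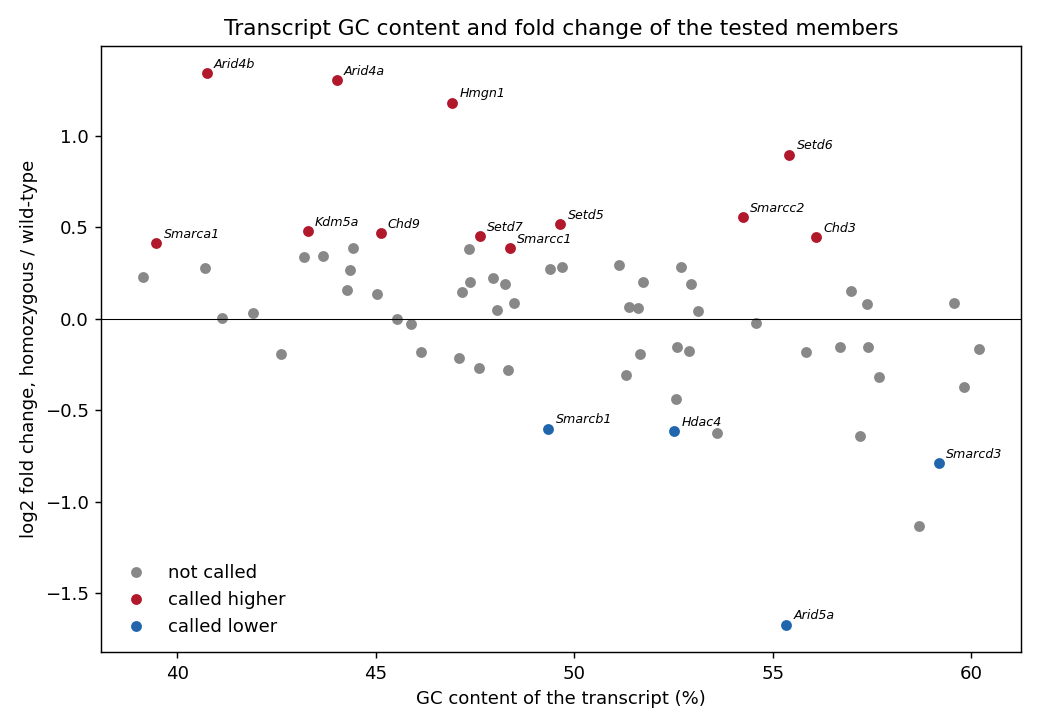
Log2 fold change of homozygous against wild-type against the GC content of the transcript in percent, for 67 tested members (red: called higher; blue: called lower; grey: not called). The points slope down to the right, with Arid4b at 40.7% GC at the top, and Setd6, Smarcc2 and Chd3 stand above 0 at 54% GC or more.

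The Kmt2 genes, whose family includes the large H3K4 methyltransferases, are listed in the table under older symbols and so fall outside the rule. A symbol of this family does not mean that each gene encodes an active methyltransferase. The genes were added after the values had been seen. Mll5 (now Kmt2e) was at 377 ± 28.1 CPM in wild-type, 512 ± 51.8 CPM in heterozygous and 644 ± 16.4 CPM in homozygous libraries (SD, n = 4). Mll5 rose by 0.77 on the log2 scale (SE 0.108, adjusted p = 2.87e-05, edgeR). Mll1 (Kmt2a) and Mll3 (Kmt2c) were at 0.18 (adjusted p = 0.228, edgeR) and 0.08 (adjusted p = 0.584, edgeR) and not called, although Mll1 was called with the GC and length offset (0.30, adjusted p = 0.0202). Mll2, a symbol that has been used for more than 1 gene of this family, fell by 0.40 (SE 0.121, adjusted p = 0.0175, edgeR), a call that ended without homozygous libraries 4 and 5 (-0.27, adjusted p = 0.175), with the GC slope covariate (-0.16, adjusted p = 0.578) and without wild-type library 3, homozygous library 4 or homozygous library 5 (adjusted p = 0.084, 0.0605 and 0.0506). Wbp7, also of this family, was at -0.51 (adjusted p = 0.0847, edgeR) and was not called; with the GC slope covariate it was at 0.12 (adjusted p = 0.831).

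Other chromatin genes were followed in 11 lists, beside a background of 13.7% higher and 11.6% lower among the 10737 genes tested. Of 29 tested partner subunits of the remodellers 7 rose and 1 fell (median log2 fold change -0.03). Atrx, a remodeller of heterochromatin and telomeres, was at 416 ± 58.3 CPM in wild-type and 887 ± 101 CPM in homozygous libraries (SD, n = 4), a rise of 1.09 on the log2 scale (adjusted p = 8.00e-06, edgeR), and Bptf, the large subunit of the NURF complex that contains Smarca1, from 360 ± 28.7 to 622 ± 61.2 CPM (SD, n = 4; 0.78, adjusted p = 3.75e-05, edgeR). Baz2b rose by 0.62. Atrx was also called in heterozygous libraries (0.75, adjusted p = 0.00991, edgeR), though not without wild-type library 2 or 3 or heterozygous library 3 or 4 (adjusted p = 0.0526, 0.0808, 0.0778 and 0.0792). Those fits called 0.0272% to 0.0278% of all genes in that comparison. Of 28 deacetylase co-repressor genes 4 rose and 2 fell (median 0.06). Zmym2, a zinc finger partner of the LSD1-CoREST-HDAC complex, rose by 1.18 (SE 0.170, adjusted p = 4.20e-05, edgeR), the methyl-CpG binder Mbd2 by 0.77 and the SIN3 subunit Brms1l by 0.61. Without homozygous libraries 4 and 5 the value of Zmym2 was 0.71, over 1.5 times smaller and still called. With the GC slope covariate Mbd2, Baz2b and Brms1l were at 0.48, 0.45 and 0.56 and no longer called (adjusted p = 0.208, 0.0818 and 0.108).

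Of 13 tested DNA methylation genes 3 rose and 0 fell (median 0.36), namely the 5-methylcytosine dioxygenases Tet1 (log2 fold change 0.81, adjusted p = 0.000433, edgeR) and Tet2 (0.43, adjusted p = 0.0151, edgeR) and the methyl-CpG binding family gene Mbd5 (0.49, adjusted p = 0.0103, edgeR). The calls of Tet2 and Mbd5 ended without homozygous libraries 4 and 5 (adjusted p = 0.0991 and 0.083), that of Tet2 also without wild-type library 3 (adjusted p = 0.0619), and with the GC slope covariate all 3 calls ended (adjusted p = 0.0778 for Tet1). Of 31 Polycomb genes 3 rose and 3 fell (median -0.18), with Phc3 at 0.72, the H3K27 methyltransferase subunit Suz12 at 0.69 and the chromodomain reader Cbx6 at -0.52. The Suz12 and Cbx6 calls ended without homozygous libraries 4 and 5 (adjusted p = 0.0792 and 0.0722) and that of Cbx6 without wild-type library 3 (adjusted p = 0.0507), and the GC slope covariate ended all 3 (adjusted p = 0.0973 for Phc3). Of 24 other histone methyltransferase and demethylase genes 4 rose and 4 fell (median -0.04), with Smyd3 at 0.84, Jmjd1c at 0.57 and Whsc1l1 at 0.49. Of these 3, Smyd3 kept its call with the GC slope covariate (0.75, adjusted p = 0.00403), and Jmjd1c and Whsc1l1 did not (adjusted p = 0.157 and 0.219). Of 13 COMPASS subunit genes, which work with the Kmt2 enzymes, 4 rose and 1 fell (median 0.02). Psip1 was at 0.71 and Ncoa6 at 0.49, and Wdr82 at -0.48. Psip1 was also called in heterozygous libraries (0.65, adjusted p = 0.0175, edgeR), but not without wild-type library 1, 2 or 3 or heterozygous library 3 or 4 (adjusted p = 0.0607 to 0.119). Those fits called 0.0272% to 0.146% of all genes in that comparison. The Wdr82 call ended without homozygous libraries 4 and 5 (adjusted p = 0.0947), without wild-type library 2 (adjusted p = 0.0803) and without wild-type library 5 (adjusted p = 0.0531), and the GC slope covariate ended those of Ncoa6 and Wdr82 (adjusted p = 0.1503 and 0.372).

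Of 11 acetyltransferase genes 2 rose and 0 fell (median 0.05), Hat1, which acetylates new histone H4 (log2 fold change 0.83, adjusted p = 0.00295, edgeR), and Taf1 (0.36, adjusted p = 0.0195, edgeR). The Taf1 call ended without homozygous libraries 4 and 5 (0.27, adjusted p = 0.148), with either GC term (adjusted p = 0.350 with the offset, 0.347 with the slope) and without wild-type library 2, homozygous library 4 or homozygous library 5 (adjusted p = 0.0527, 0.0537 and 0.0524), and that of Hat1 with the GC slope covariate (0.48, adjusted p = 0.270). Of 4 sirtuin genes Sirt3 alone was called, at -0.77 (adjusted p = 0.0401, edgeR), and the call ended in 7 of the fits that left out a library (adjusted p up to 0.128). Of 18 bromodomain and acetyl-reader genes, which include Taf1, 3 rose and 2 fell (median 0.14), with Phip at 0.61, Brwd3 at 1.11 and Mllt1 at -1.12. With the GC slope covariate Phip, Brwd3 and Mllt1 were at 0.34, 0.27 and -0.50, none called (adjusted p = 0.174, 0.559 and 0.545), and Mllt1 was not called without homozygous libraries 4 and 5 (-0.80, adjusted p = 0.0952). Of 8 tested histone genes 1 rose, H2afy2, which encodes a macroH2A variant, at 1.21, and not with the GC slope covariate (0.96, adjusted p = 0.0862). Of 18 histone chaperone genes 8 rose and 3 fell (median 0.21), led by Npm1 at 2.49, Anp32b at 1.12 and Anp32a at 0.92, and the calls of these 3 held without homozygous libraries 4 and 5 and with either GC term. Npm1 has many processed pseudogenes, so its count is uncertain.

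Markers of the cell types in the dissected tissue were counted in the same libraries, and their part in the members' changes was not tested. Of 13 neuronal markers 6 were higher and 2 lower in homozygous libraries, and their summed level was 9771 to 11270 CPM in wild-type and 11900 to 13910 CPM in homozygous libraries, without overlap. Astrocyte markers summed to 4855 to 5960 CPM and 5559 to 7081 CPM, with 2 higher and 4 lower of 12. Oligodendrocyte markers summed to 3663 to 4546 CPM and 2617 to 4134 CPM, with 3 higher and 2 lower of 14. For microglia, 0 of 8 tested markers were called, with sums of 273 to 316 CPM and 281 to 323 CPM. The pituitary list separated the genotypes, with sums of 518.5 to 954.8 CPM in wild-type and 1355 to 1565 CPM in homozygous libraries. Chgb, a granin that neurons also express, made up most of it (657.9 ± 188 and 1432 ± 95.6 CPM, SD, n = 4) and was higher, while Pomc was lower (15.9 ± 5.49 and 6.86 ± 4.50 CPM, SD, n = 4). Of the 8 pituitary markers 3, Gh, Prl and Pou1f1, were at 0 in all 12 libraries. The markers Cga, Lhb and Tshb had some reads, too few to be tested. Telencephalic and thalamic markers overlapped, with telencephalic sums of 1057 to 1329 CPM and 980 to 1148 CPM, and thalamic sums of 334 to 432 CPM and 415 to 618 CPM, 3 of 7 thalamic markers being higher.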

How the data were processed

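The table holds raw read counts per gene, as deposited, one column for each of 12 libraries; it was used without change. RNA (50 ng) was amplified with the NuGEN Ovation kit and sequenced on a SOLiD 5500xl, per the labels' protocols, and the submitters' processing notes name mm10 as the build. Which aligner, counter, annotation and strand setting were used is not given in the sources used here, so reads of overlapping and antisense genes, and of near-identical copies, cannot be told apart. Amplification from a small amount of RNA can leave biases of base composition and length in such counts, and the reads carry no molecular identifiers. Columns were matched to labels by name. Homozygous library 5 has no label of its own number and was placed by its genotype prefix, and whether it is the labelled homozygous sample 3, which has no column of that number, is not known.

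Genes were filtered with filterByExpr, scaled by TMM (factors 0.908 to 1.08) and tested with edgeR 4.0.16 (glmQLFit and glmQLFTest, R 4.3.3) in 1 model over the 3 genotypes, with Benjamini-Hochberg adjustment over all 10737 genes tested and a call at an adjusted p under 0.05. CPM are TMM-scaled. Libraries are different individuals per the series' design text, and p-values measure the spread between them. No pair of libraries of a genotype agreed within counting noise (chi-square per degree of freedom 1.79 to 6.32). Length, GC content and gene positions come from GENCODE M21, on which 20717 symbols matched directly and 1880 through an older symbol, while 1423 had no match. Alternatives were RLE size factors, DESeq2 1.42.0, voom in limma 3.58.1, no filter or a stricter filter, only the 2 genotypes compared, each library left out, homozygous libraries 4 and 5 left out, a replicate block, and GC content as an offset (with length) or as each library's slope. The scripts were tested on simulated data.

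The members, the lists and the alternatives were chosen with earlier results of these data known. Values in every library are given for up to 5 members of each stem by smallest p between homozygous and wild-type, taken where the unadjusted p was under 0.05, for members called in another comparison and for the member of each stem with the highest wild-type level per length. Up to 3 genes of each further list are named by smallest p, and other members by their level or log2 fold change. The Kmt2 genes and the members described only by libraries that do not overlap were named after their values were seen. Results for 2 members by name are not reported here; the counts over members include them.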

Additional observations from a re-analysis of the deposited data

Results flagged for a closer look

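In 4 of 96 groups of 4 libraries that were checked, 1 library lay far from the others by Dixon's 95% criterion, where chance gives about 1 in 20. Arid4b was at 129.7 CPM in wild-type replicate 3, and at 169.4, 173.4 and 177.0 CPM in the other wild-type libraries. Chd8 was at 157.9 CPM in wild-type replicate 2, below 169.7, 170.1 and 171.2 CPM. Kdm2a was at 208.3 CPM in wild-type replicate 1, below 248.0, 253.6 and 255.0 CPM. The ribosomal RNA precursor Rn45s was at 788.3 CPM in heterozygous replicate 2, above 352.4, 378.0 and 378.7 CPM in the other heterozygous libraries.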

How the results depend on the processing

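Of the 17 members called between homozygous and wild-type, 4 were called in all 22 alternatives, namely Arid4a, Arid4b, Setd5 and Smarcc2. Over all genes tested, the share called ran from 4.29% with the GC slope covariate to 28.4% without homozygous replicate 2, beside 25.4% in the main fit. The count of 13 higher and 4 lower became 15 and 4 with RLE factors, 16 and 5 with DESeq2, 13 and 5 with voom, 14 and 6 with no filter, 13 and 5 with the stricter filter (which left Arid5a untested), 11 and 3 with only the 2 genotypes, 8 and 0 without homozygous libraries 4 and 5, 18 and 2 with the GC and length offset, and 7 and 0 with the GC slope covariate. The shares called of members and of all genes were 27.9% and 25.5% with RLE factors, 30.9% and 24.9% with DESeq2 and 26.5% and 24.2% with voom. They were 24.4% and 15.9% with no filter, 27.7% and 27.8% with the stricter filter and 20.9% and 22.8% with only the 2 genotypes. With the offset they were 29.4% and 21.3%. Leaving out 1 library at a time gave 9 to 14 higher and 1 to 8 lower, with 1 lower without wild-type replicate 3 and 8 without homozygous replicate 2. These fits called 14.5% to 32.4% of members and 16.9% to 28.4% of all genes. With the replicate block the counts were 7 and 1, which is 11.8% of members beside 12.2% of all genes. Wild-type library 5 and homozygous library 5 have no same-numbered partner and added nothing to the genotype comparison in that fit. The cause of the lower counts was not tested. The labels do not say whether libraries of the same number share a batch, and this was not tested. Of 8 same-numbered pairs, whose deviations correlated at -0.265 to 0.337, 1 was over 0.1. That pair, heterozygous and homozygous library 2, was also above the 40 other pairs, which lay between -0.258 and 0.243. Of 10 libraries with a same-numbered partner, 4 correlated best with their own number.

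In heterozygous against wild-type libraries the 1 member called higher became 3 with DESeq2, 2 with no filter and 3 without homozygous libraries 4 and 5. It became 3 with the GC and length offset, 4 with the GC slope covariate and 3 with only the 2 genotypes. It was 1 with the replicate block and 0 to 2 with 1 library left out. The count called lower was 0 throughout. In the order given, these fits called 2.12%, 1.57%, 3.79%, 1.44%, 2.42%, 3.64%, 1.52% and 0.0272% to 2.03% of all genes, beside 0.596% in the main fit. In homozygous against heterozygous libraries the 1 called higher became 3 with DESeq2, 2 with voom, 2 with no filter, 3 with the offset, 0 with the replicate block, 0 without homozygous libraries 4 and 5, 0 with the GC slope covariate, 0 with only the 2 genotypes and 0 to 2 with 1 library left out. The count called lower was 0, and 0 to 2 with 1 library left out (2, Hdac4 and Hdac5, without homozygous replicate 2). In the order given, these fits called 4.28%, 1.55%, 4.06%, 2.59%, 0.307%, 0.00882%, 0.00931%, 0.43% and 0.0558% to 8.02% of all genes, beside 2.20% in the main fit.

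Among the genes named with values in every library and the Kmt2 genes, the sign turned for Brd2 (0.14) and Hdac11 (0.27) with the GC and length offset, Wbp7 (0.12) with the GC slope covariate and Hmgn3 without homozygous replicate 1 (leaving out 1 library gave -0.0877 to 0.558), none of them called in either fit. Signs of single Hdac genes turned with both GC terms. With the offset 3 of 8 were positive, beside 2 of 8 in the main fit, but these were other genes. Hdac5, Hdac7 and Hdac11 turned positive with it, and Hdac2 and Hdac9 turned negative. With the slope covariate 6 of 8 were positive. With 979394 to 2330872 reads per library, the 17 untested members could not be compared at this depth.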
